A study of Mus musculus with 12 samples.

Results

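The genes described here encode autotaxin (Enpp2), 4 receptors for lysophosphatidic acid (Lpar1 to Lpar4), 3 receptors for sphingosine 1-phosphate (S1pr1 to S1pr3) and 2 lipid phosphate phosphatases (Plpp1 and Plpp3). They were chosen by name, with earlier results of these data in view, and their probes were found through the RefSeq transcript given for each spot. The set holds 10 of the 17016 genes and 15 of 41174 probes on the array. Since the levels of these genes across the groups were the reason for choosing them, their values are a description and carry no test. The study compared mouse embryonic fibroblasts labelled FAK KO, which lack focal adhesion kinase, with fibroblasts labelled FAK Rescue, clone DA2, each at a sparse and a dense seeding. There were 12 cultures, 3 in each of 4 groups, 1 per group on each of 3 experimental days. Each culture was hybridised to its own one-colour array. Sparse cultures received 410000 cells and dense cultures 8200000 cells in a 10 cm dish, and all were grown for 24 h in serum-containing DMEM. The rescue cells also received 135 µg/ml hygromycin B and non-essential amino acids, which the KO cells did not, so line and medium cannot be told apart. The rescue line is 1 clone, and the KO line is 1 established cell line.

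Autotaxin is a secreted lysophospholipase D that makes lysophosphatidic acid (LPA) from lysophosphatidylcholine outside the cell. LPA and sphingosine 1-phosphate (S1P) are serum lipids that act through G protein-coupled receptors and drive fibroblast migration, contraction and growth through Gi, Gq and G12/13 proteins. Lipid phosphate phosphatases at the cell surface remove the phosphate and so end the signal.

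The promoters of 3 genes that the results turn on are shown: Plpp3 and Lpar4, which were lower in KO cultures, and Lpar2, which was higher there. Each is the 250 bases before the RefSeq transcription start in GRCm38.p6, written 5' to 3' on the strand of the gene, with motif matches in capitals. On both strands, TEAD factors were searched by the letters GGAATG and AP-1 factors by TGANTCA. The GC box was searched as GGGCGG, and for the TATA box the letters were TATAAA. For FOXO factors they were TGTTTAC, and for the CArG box they were CC, then 6 letters that are each A or T, then GG.
Plpp3 promoter, chr4:105157097-105157346, plus strand: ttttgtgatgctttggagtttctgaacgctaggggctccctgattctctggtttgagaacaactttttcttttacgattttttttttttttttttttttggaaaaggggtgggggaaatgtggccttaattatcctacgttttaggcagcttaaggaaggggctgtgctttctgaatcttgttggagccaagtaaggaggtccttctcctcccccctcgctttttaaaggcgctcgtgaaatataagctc
Lpar4 promoter, chrX:106920375-106920624, plus strand: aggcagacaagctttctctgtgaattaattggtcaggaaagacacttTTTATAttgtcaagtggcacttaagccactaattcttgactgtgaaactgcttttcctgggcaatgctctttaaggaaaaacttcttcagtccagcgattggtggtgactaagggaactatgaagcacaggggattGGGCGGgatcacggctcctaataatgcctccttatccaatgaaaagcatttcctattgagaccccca
Lpar2 promoter, chr8:69822315-69822564, plus strand: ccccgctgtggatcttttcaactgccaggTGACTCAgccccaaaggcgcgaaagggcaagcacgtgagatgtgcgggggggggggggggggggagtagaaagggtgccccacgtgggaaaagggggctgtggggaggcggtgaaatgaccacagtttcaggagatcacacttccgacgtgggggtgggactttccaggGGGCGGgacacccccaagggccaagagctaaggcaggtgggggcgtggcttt
The Plpp3 window holds none of the 6 motifs. The Lpar4 window holds 1 GC box and, on the opposite strand, 1 TATA box, which are found in 32.7% and 12.4% of all 32841 promoter windows of this length. In the Lpar2 window there are 1 AP-1 match, found in 6.75% of all windows, and 1 GC box. TEAD, FOXO and CArG letters occur in 12.6%, 3.17% and 1.47% of all windows and in none of these 3. No match overlapped another. Of the other members with a promoter entry, Lpar3 has 3 GC box matches, S1pr3 and 2 of the 3 listed starts of Lpar1 have 1 each, and S1pr2 has none of the motifs. Enpp2, S1pr1 and Plpp1 had no promoter entry, so their promoters were not searched. These matches describe letters and not bound sites.

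Levels below are log2 processed signals relative to the 75th percentile of all probes on the same array, so that 0 is that percentile, and they are compared between groups for 1 probe at a time. The arrays had between 23150 and 26183 probes well above background, and arrays of 1 group correlated at 0.982 to 0.992. The first of the 2 probes for Ptk2, which encodes focal adhesion kinase, had group means of 0.31, 0.36, 0.20 and 0.29 in rescue sparse, rescue dense, KO sparse and KO dense cultures. The other averaged 0.71, -0.68, -1.37 and -1.61. The position of these probes against the disrupted exons is not given in the sources used here, so they do not check the labels. Fibroblast markers were present in all groups, 8 or 9 of 10 well above background on all arrays of each group, with summed linear signals of 1070 to 1960 times the 75th percentile in rescue and 387 to 428 times in KO cultures. Wt1, a mesothelial transcription factor, was on no rescue array above background and averaged 4.61 and 4.65 in KO sparse and KO dense cultures. The 2 densities of a line and day shared a slide, whereas the 2 lines shared a slide only on day 2.

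Enpp2 was detected in the rescue line alone and was far higher there in dense than in sparse cultures. Sparse rescue cultures had levels of -3.92, -3.89 and -3.85 on days 1 to 3, and dense rescue cultures had 0.94, 2.60 and 1.24. All 6 KO arrays were not well above background, at -7.41, -7.40 and -7.62 in sparse and -7.07, -7.83 and -7.89 in dense cultures. The sparse rescue arrays agreed closely and lay below every dense rescue array. The difference, dense minus sparse in rescue cells, was 5.47 ± 0.37 (log2, SE from the fit across all genes), or 44.4-fold, and within the slides of the 3 days it was 4.85, 6.48 and 5.08. By an approximate bound, Enpp2 was 178-fold lower in dense KO than in dense rescue cultures, and 2.74-fold lower in sparse ones. The bound sets the mean of the detected group against the lowest signal called well above background on the other group's arrays. Single probes can read above that signal without being called, so a fold below the bound is possible. On the sparse KO array of day 2, the second S1pr3 probe was above it at -4.90 and was not called. The sparse bound is small since sparse rescue cells themselves were dim, and with normexp background correction the sparse difference was 0.10 in place of -3.59. That correction also gave a smaller dense difference than the bound, -4.32 on the log2 scale in place of -9.19. It adds an offset of 50 units to each signal, which shrinks log2 differences of dim probes. In these bulk cultures, fewer cells that express a gene and less RNA per cell cannot be told apart.

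Among the LPA receptors, Lpar1 and Lpar4 were lower and Lpar2 was higher in KO than in rescue cultures, and Lpar3 cleared background on no array. Lpar1, the LPA receptor best known in fibroblasts, couples to Gi, Gq and G12/13. Its brighter probe gave 0.61, 0.78 and 1.10 in sparse rescue and 1.04, 1.17 and 1.08 in dense rescue cultures. In KO cells it gave -1.26, -0.79 and -0.76 in sparse and -0.30, 0.25 and 0.21 in dense cultures. The 2 rescue groups overlapped, every KO culture lay below every rescue culture, and dense KO lay above sparse KO. Differences, KO minus rescue, were -1.77 ± 0.21 in sparse and -1.04 ± 0.21 in dense cultures. The density difference was 0.99 ± 0.21 in KO cells (0.96, 1.05 and 0.97 within slides) and 0.27 ± 0.21 in rescue cells. The second Lpar1 probe gave -1.71 and -1.14 between the lines and 0.96 and 0.39 between the densities of KO and rescue cells.

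Lpar2 also couples to Gi, Gq and G12/13. Sparse rescue cultures had -2.56, -2.60 and -2.46, dense rescue cultures -1.15, -1.36 and -1.17, sparse KO cultures -0.84, -0.51 and -1.03 and dense KO cultures -0.42, -0.55 and -0.76. Rescue cultures at both densities lay below the KO cultures, with sparse rescue the lowest, and the 2 KO groups overlapped. KO exceeded rescue by 1.75 ± 0.17 in sparse and 0.65 ± 0.17 in dense cultures. The step from sparse to dense was 1.31 ± 0.17 in rescue cells, with 1.40, 1.25 and 1.29 within slides, and 0.22 ± 0.17 in KO cells.

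Lpar4 belongs to the P2Y-related group of LPA receptors. Its brighter probe read -2.25, -2.15 and -1.68 in sparse rescue and -1.23, -1.11 and -1.18 in dense rescue cultures, above background on all 6 arrays. The KO readings were -5.64, -4.64 and -6.25 in sparse and -4.67, -6.26 and -4.74 in dense cultures, above background on 1 of 3 and 2 of 3 arrays. No KO culture reached the rescue range, and the spread within KO groups was wide. The differences were -3.49 ± 0.44 in sparse and -4.05 ± 0.44 in dense cultures, and -0.65 and -1.68 with normexp background correction. Its second probe was above background on 1 array, of dense rescue cells on day 3.

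S1pr1 was above background on all 6 rescue arrays and on 1 KO array, S1pr2 was moderately lower in KO cultures, and S1pr3 was dim with higher readings in KO cultures. S1pr1, a Gi-coupled receptor known for its part in vessels and in lymphocyte egress, gave -0.37, -0.32 and -0.03 in sparse rescue and 0.85, 0.56 and 1.00 in dense rescue cultures. Sparse KO arrays were all not well above background, at -7.46, -7.46 and -7.15. Of the dense KO arrays, 1 was above background, on day 1 at -5.78, and the others read -8.16 and -8.01. Rescue groups did not overlap each other, and both lay far above the KO arrays. S1pr1 was 34.3-fold lower in sparse KO cultures by the approximate bound used for Enpp2. Dense KO minus dense rescue was -8.12 ± 0.49 by the fit. With normexp background correction these log2 differences were -2.35 in sparse cultures, less than the bound, and -3.69 in dense ones. Dense rescue exceeded sparse rescue by 1.04 ± 0.49, with 1.21, 0.88 and 1.03 within slides. The summed linear signal of 10 endothelial markers, in units of the array's 75th percentile, moved with S1pr1, from 4.78 to 6.56 in sparse rescue and 13 to 18.7 in dense rescue to at most 0.492 in KO cultures. Pecam1 and Tie1 were above background on no array. Cdh5 and Kdr were above it on at least 1 dense rescue array and on no array of the other groups. Of the 10 markers, 4 and 5 were well above background on every array of sparse and dense rescue cultures. In sparse and dense KO cultures 2 and 3 were. The part of endothelial cells in the result was not tested.

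S1pr2 couples to G12/13 and is known to restrain migration. The brighter probe gave 0.74, 0.43 and 0.60 in sparse rescue, 0.98, 0.58 and 0.85 in dense rescue, -0.69, -0.62 and -1.07 in sparse KO and 0.48, -0.13 and -0.10 in dense KO cultures. Sparse KO lay below the other 3 groups, and dense KO overlapped sparse rescue but not dense rescue. KO minus rescue was -1.38 ± 0.21 in sparse and -0.72 ± 0.21 in dense cultures. The second probe gave -1.35 and -1.12. For density in KO cells the 2 probes differed, with 0.88 ± 0.21 from the brighter and -0.15 ± 0.35 from the other, whose groups overlapped.

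S1pr3, a receptor that couples to Gi, Gq and G12/13, read -4.03, -7.74 and -7.16 in sparse rescue and -4.25, -5.50 and -7.51 in dense rescue cultures, above background on 1 and 2 of 3 arrays. KO readings were -3.70, -4.45 and -4.83 in sparse and -3.75, -3.95 and -4.10 in dense cultures, above background on all 6 arrays. The rescue culture of day 1 was as bright as KO cultures at the sparse density, so those groups overlapped. Differences were 1.99 ± 0.91 and 1.82 ± 0.91, and the second probe was above background on 1 array. Leaving out 1 culture gave 1.27 to 3.12 in sparse cultures, the highest without the sparse rescue culture of day 1 and the lowest without that of day 2. In dense cultures it gave 0.94 to 2.57, the lowest without the dense rescue culture of day 3. The sparse difference was 0.52 with spike-in scaling and the dense one 0.60 with normexp background correction.

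Both phosphatases were lower in KO cultures, Plpp3 by more than Plpp1. Plpp3 (LPP3), which degrades LPA and S1P at the cell surface, gave 3.58, 4.47 and 3.41 in sparse rescue and 5.12, 5.33 and 4.30 in dense rescue cultures. It gave -0.43, -0.45 and -0.57 in sparse KO and -0.60, -1.11 and -1.23 in dense KO cultures. The KO cultures lay well below every rescue culture, and dense cultures had the higher mean in rescue and the lower mean in KO cells. KO minus rescue was -4.30 ± 0.32, or 19.8-fold lower, in sparse cultures and -5.89 ± 0.32, or 59.5-fold lower, in dense cultures. Dense minus sparse was 1.09 ± 0.32 in rescue cells, where the groups overlapped but each slide gave a positive value (1.54, 0.86 and 0.88). In KO cells it was -0.50 ± 0.32, and 2.00 with scaling to the spike-in RNA.

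Plpp1 (LPP1), the related phosphatase, gave 3.94, 3.77 and 3.66 in sparse rescue, 3.75, 3.23 and 3.65 in dense rescue, 1.77, 1.5 and 1.57 in sparse KO and 2.03, 1.24 and 1.25 in dense KO cultures. The lines were apart and the densities overlapped within each line. KO minus rescue was -2.18 ± 0.23 in sparse and -2.03 ± 0.23 in dense cultures, and the second probe gave -2.15 and -2.01. The densities differed by -0.25 ± 0.23 in rescue and -0.11 ± 0.23 in KO cells.

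**Figure D1:**
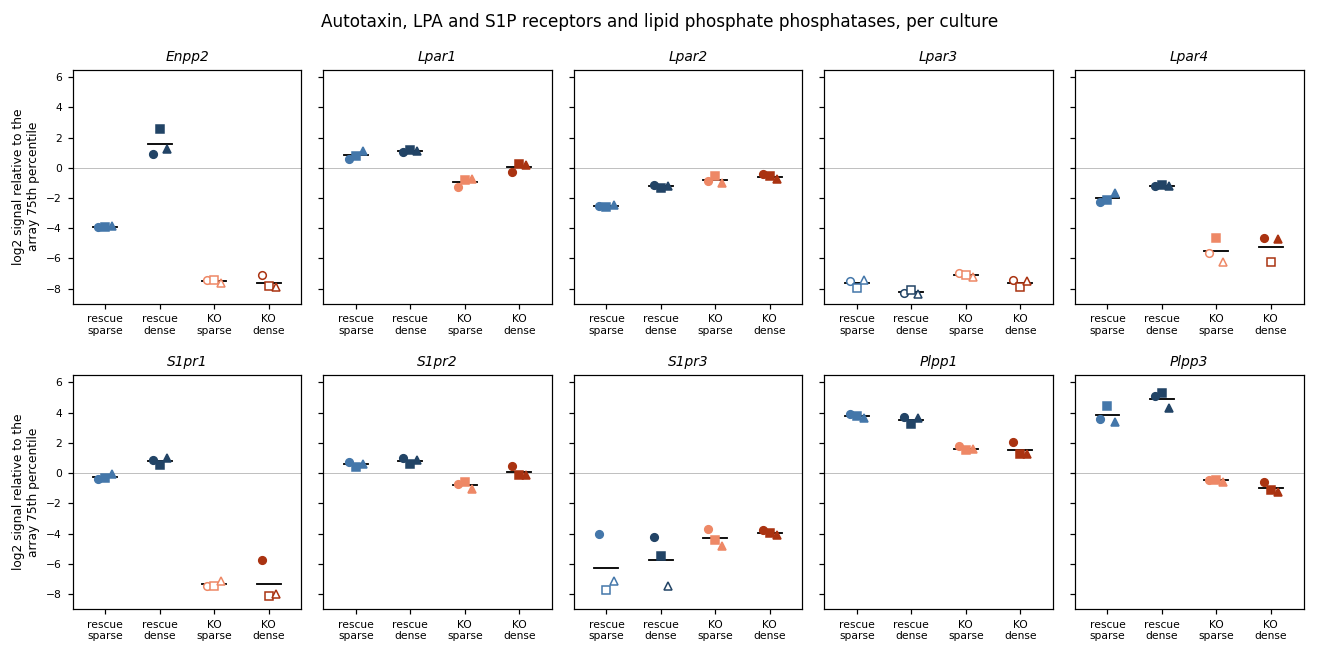
Levels of the 10 genes in each culture, by the brightest probe of each gene; the vertical axis is the log2 signal relative to the array's 75th percentile, and the horizontal axis gives the 4 groups. Circles, squares and triangles are the cultures of days 1, 2 and 3, filled where the probe was well above background, and bars are group means. Enpp2 goes from -3.88 to 1.59 (means) between sparse and dense rescue cultures, and Plpp3 is at 3.82 and 4.92 in rescue against -0.48 and -0.98 in KO cultures.

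Set side by side between the lines, 9 of the 10 genes could be compared, since Lpar3 passed no filter. In sparse cultures 7 of the 9 had KO cultures all below rescue cultures (Enpp2, Lpar1, Lpar4, S1pr1, S1pr2, Plpp1 and Plpp3), where 30% of all 12435 tested genes did, and 1 (Lpar2) had them all above, where 28.9% did. In dense cultures the same 7 were all below, against 32.4% of all genes, and Lpar2 and S1pr3 were all above, against 34.7%. The median difference over the 9 genes was -2.18 in sparse and -2.03 in dense cultures, beside 0.03 and 0.08 over all genes tested. These counts follow from how the genes were chosen. On the day 2 slide, the only one with both lines, KO minus rescue was -4.93 in sparse and -6.44 in dense cultures for Plpp3, -1.57 and -0.92 for Lpar1, -2.27 and -1.99 for Plpp1 and 2.10 and 0.80 for Lpar2. Scaling to the spike-in RNA moved the median of all genes by -1.46 in the sparse comparison of the lines and by 0.29 in the dense one. Under it the sparse difference was 0.28 for Lpar2, -3.23 for Lpar1 and -5.77 for Plpp3.

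Markers of other cell types also differed between the lines. Summed linear signals of 9 mesothelial markers on the array were 25 to 45.7 in rescue and 88.7 to 109 in KO cultures, with Wt1, Upk3b, Lrrn4 and Bnc1 on no rescue array. Upk1b and Gpm6a were on no dense rescue array. All 9 were well above background on every array of both KO groups, and 3 were on every array of each rescue group. Epithelial markers summed to at most 2.3 in rescue and to between 99.4 and 146 in KO cultures, where Krt18 carried the sum and Cldn4 was on no array. Cdh1 went the other way, on no KO array and on at least 1 array of each rescue group. Of 10 epithelial markers, 6 and 4 were well above background on every array of sparse and dense rescue cultures. In sparse and dense KO cultures 5 and 5 were. Leukocyte markers summed to at most 1.46 in any culture, and Ptprc was on none. Their part in the differences of the receptors and enzymes was not tested.

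**Figure D2:**
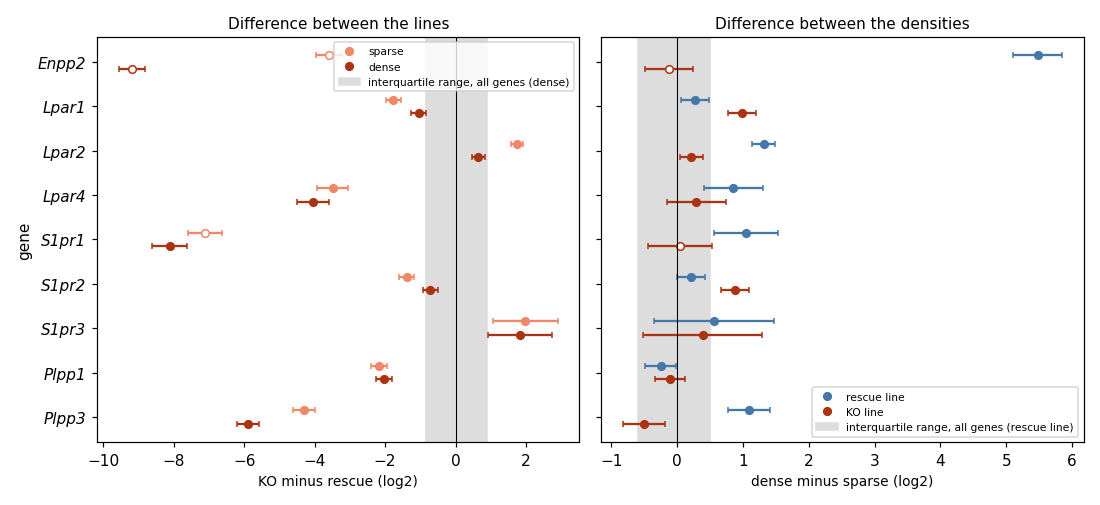
Differences on the log2 scale for the 9 genes that passed the filter, KO minus rescue on the left and dense minus sparse on the right; points are fitted differences, bars are 1 SE, and open points mark a comparison in which 1 group or both had no array well above background. Grey bands span the interquartile range of all 12435 genes, -0.85 to 0.90 for dense KO minus dense rescue and -0.60 to 0.50 for density in rescue cells. Enpp2 stands at 5.47 for density in rescue cells, and Lpar2 and S1pr3 lie to the right of 0 between the lines.

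Between the densities, 4 genes in rescue cells had every dense culture above every sparse one (Enpp2, Lpar2, Lpar4 and S1pr1), where 24.3% of all genes did, and none had them below, where 26.3% did. In KO cells Lpar1 and S1pr2 were above and Plpp3 was below, each against 19.1% of all genes. Without the dense KO culture of day 1, 6 of the genes had KO densities that did not overlap. Groups separate more easily with fewer cultures, and the share of all genes was not computed there, so 19.1% does not apply. The median over the genes was 0.86 in rescue and 0.22 in KO cells, beside -0.08 and 0.00 over all genes. Dense minus sparse in KO cells, less the same in rescue cells, was -5.59 ± 0.52 for Enpp2, -1.59 ± 0.45 for Plpp3, -1.10 ± 0.25 for Lpar2, 0.72 ± 0.30 for Lpar1 and 0.67 ± 0.30 for S1pr2. Scaling to the spike-in RNA moved the median of all genes by 1.76 in this contrast. That scaling turned Plpp3 to 0.16, Lpar2 to 0.66, S1pr1 to 0.75, Lpar4 to 1.19 and S1pr3 to 1.58. The Enpp2 value rests on KO cultures without a detected signal.

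**Figure D3:**
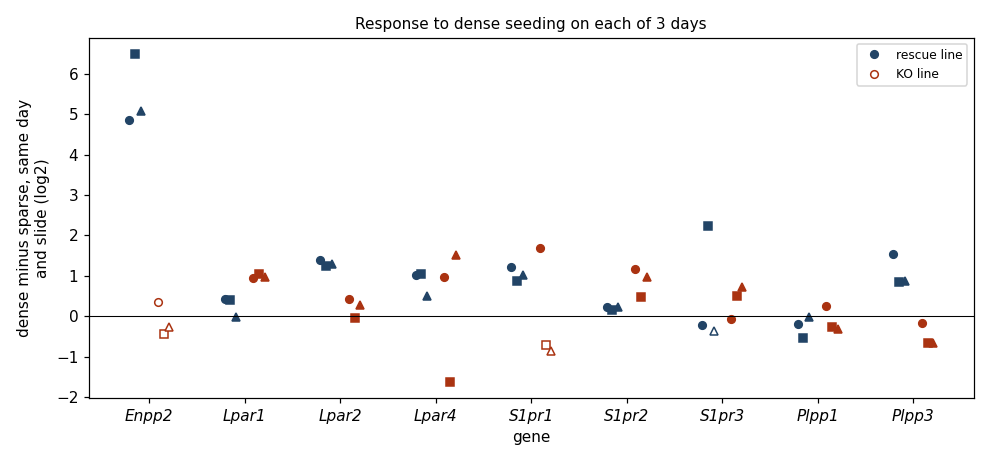
Dense minus sparse within the same day and slide, on the log2 scale, for each of the 9 genes (horizontal axis); circles, squares and triangles are days 1, 2 and 3, blue for rescue and red for KO cells, and open symbols mark days with neither culture well above background. For Enpp2 the 3 rescue values lie between 4.85 and 6.48. Lpar2 gives 1.25 to 1.40 in rescue cells and -0.05 to 0.43 in KO cells, and Lpar1 gives 0.96 to 1.05 in KO cells.

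The rest of the pathway was described by 5 lists of other genes, 95 in all, of which 79 were tested among all 12435 genes with limma. At a limma adjusted p under 0.05, 11 were higher and 33 lower in sparse KO than in sparse rescue cultures, 55.7% of those tested beside 48.8% of all genes (23.2% higher and 25.6% lower). For dense cultures 16 were higher and 33 lower, 62% beside 61.6% (31.9% and 29.7%). For density, 16 rose and 21 fell in rescue cells, 46.8% beside 40% (19% and 21%). In KO cells 3 rose and 17 fell, 25.3% beside 10.9% (5.44% and 5.47%). That balance in KO cells depended on the processing: scaling to the spike-in RNA called 71 higher and 1 lower in dense KO cultures, and normexp background correction called 0 higher and 3 lower. The count in KO cells was 11 without the sparse KO culture of day 1 and 12 without the dense KO culture of day 2. The density response differed between the lines for 15 genes, 7 with a higher and 8 with a lower value in KO cells, 19% beside 20.7% (11.3% and 9.47%). Spike-in scaling gave 57 with a higher and 1 with a lower value for that difference of responses, and 4 higher and 66 lower between the sparse lines. Rgs16 between the dense lines, S1pr5 in rescue cells and Pla1a in KO cells were called by the fit with no array of either group above background, and no difference is read from these 3.

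Of the other 7 LPA and S1P receptors, 2 were tested. S1pr5, a Gi- and G12/13-coupled S1P receptor known in natural killer cells and oligodendrocytes, was above background on all 6 KO arrays and on no rescue array. It read -0.99, -1.16 and -1.10 in sparse KO and -0.45, -1.33 and -1.10 in dense KO cultures, with rescue readings from -8.52 to -5.19. By the approximate bound it was 23.7-fold higher in sparse KO cultures (limma adjusted p = 2.43e-06). In dense KO cultures it was 39.7-fold higher by that bound (limma adjusted p = 1.88e-07). Normexp background correction gave log2 differences of 2.35 and 2.46, less than these bounds. Lpar6, a P2Y-related LPA receptor, had group means of 2.00, 1.75, 2.11 and 1.99 in rescue sparse, rescue dense, KO sparse and KO dense cultures. No comparison of this brighter probe passed, with limma adjusted p from 0.314 to 0.77, whereas its second probe was higher by 0.67 ± 0.26 in dense KO than in dense rescue cultures (limma adjusted p = 0.046). S1pr4 was not above background on any array. S1pr5 was thus above background where S1pr1 was not or nearly not.

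Among 19 tested enzymes of LPA synthesis and breakdown, 5 were higher and 9 lower in sparse KO, and 7 higher and 8 lower in dense KO cultures. Pla1a, a phosphatidylserine phospholipase that yields lysophospholipid, was at 1.05, 1.05 and 0.53 in sparse rescue and 0.80, 0.25 and -0.13 in dense rescue cultures, and on no KO array above background. By the approximate bound it was 74.3-fold lower in sparse KO cultures (limma adjusted p = 3.72e-09). In dense KO cultures it was 73.3-fold lower by that bound (limma adjusted p = 1.45e-09). Normexp gave log2 differences of -2.97 and -2.74, less than these bounds. Agpat2, which acylates LPA to phosphatidic acid, differed by -4.24 ± 0.22 and -4.03 ± 0.22 (limma adjusted p = 1.42e-08 and 1.81e-08). Mboat2, a lysophospholipid acyltransferase, was higher by 4.47 ± 0.47 and 4.06 ± 0.47 (limma adjusted p = 7.8e-06 and 1.22e-05), with rescue arrays above background on 1 of 3 at each density. Plpp2, the third phosphatase of the family, differed by -1.26 ± 0.18 and -0.83 ± 0.18 (limma adjusted p = 1e-04 and 0.00162), the dense call being lost with spike-in scaling (-0.54, limma adjusted p = 0.221). Liph, a phosphatidic acid phospholipase that makes LPA, was 1.58-fold lower in sparse KO cultures by the approximate bound (limma adjusted p = 0.00164). Normexp background correction turned this call to 0.30.

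Density changed 8 of these 19 enzymes in rescue cells, 2 up and 6 down, and the fit called 3 in KO cells, of which Pla1a had no KO array above background. Gdpd1, a lysophospholipase D that can also yield LPA, rose by 2.74 ± 0.29 in dense rescue cultures (limma adjusted p = 2.8e-05). Mboat1, a lysophospholipid acyltransferase, fell by 2.28 ± 0.16 (limma adjusted p = 2.45e-06) and Gpam, an acyltransferase that makes LPA inside the cell, fell by 1.29 ± 0.32 (limma adjusted p = 0.0071). The Gpam call was lost with normexp background correction (-0.28, limma adjusted p = 0.825) and with spike-in scaling (-0.54, limma adjusted p = 0.327). In KO cells the brighter probe of Gpat3, another acyltransferase of LPA synthesis, rose by 1.28 ± 0.18 (limma adjusted p = 0.0026), but its second probe did not pass (0.58 ± 0.20, limma adjusted p = 0.0895) and normexp gave 0.54 (limma adjusted p = 0.7). For Plpp6 the values were 0.53 ± 0.15 (limma adjusted p = 0.0424) by the brighter probe and -0.04 ± 0.21 (limma adjusted p = 0.931) by the second, and normexp gave 0.33 (limma adjusted p = 0.803). Gdpd1 was thus higher in dense rescue cultures, as was Enpp2, and Pla1a did not pass there (-0.57 ± 0.33, limma adjusted p = 0.19).

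Of 10 tested genes of S1P synthesis, transport and breakdown, 2 were higher and 5 lower in sparse KO and 2 higher and 4 lower in dense KO cultures. Sphk1, which makes S1P, read 2.06, 1.80 and 1.61 in sparse rescue against 0.69, 0.76 and 0.57 in sparse KO cultures. Its difference was -1.15 ± 0.28 in sparse and -1.37 ± 0.28 in dense cultures (limma adjusted p = 0.00481 and 0.00109). Sgpl1, the lyase that irreversibly cleaves S1P, differed by -1.40 ± 0.31 and -2.51 ± 0.31 (limma adjusted p = 0.00266 and 2.12e-05). Asah2, a ceramidase that yields sphingosine, differed by -1.39 ± 0.21 in dense KO cultures (limma adjusted p = 0.00012), or by -0.50 with normexp (limma adjusted p = 0.282). Apom, the lipoprotein that carries S1P, was higher by 1.60 ± 0.27 and 2.38 ± 0.27 (limma adjusted p = 0.000353 and 9.22e-06), calls that normexp ended (0.90 and 0.96, limma adjusted p = 0.113 and 0.0707), as did spike-in scaling in sparse cultures (0.14, limma adjusted p = 0.758). Sphk2 passed in neither comparison of the lines, with 0.64 ± 0.30 and -0.07 ± 0.30 (limma adjusted p = 0.0989 and 0.857).

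With density, 5 of the 10 rose and 1 fell in rescue cells, and 1 rose in KO cells. Sphk1 rose by 1.00 ± 0.28 and Sgpl1 by 1.06 ± 0.31 in rescue cells (limma adjusted p = 0.0143 and 0.0177), while Sphk2 did not pass (0.16, limma adjusted p = 0.695). The second probe of Sphk1 also rose (0.84 ± 0.22, limma adjusted p = 0.0113), and that of Sgpl1 did not pass (0.66 ± 0.26, limma adjusted p = 0.0699). Asah1, the lysosomal ceramidase, rose by 1.14 ± 0.32 in rescue and 1.32 ± 0.32 in KO cells (limma adjusted p = 0.0148 and 0.0246), the latter 0.94 with normexp (limma adjusted p = 0.244). Sgpp1, an S1P phosphatase, fell by 0.70 ± 0.21 in dense rescue cultures (limma adjusted p = 0.0196), a difference of 0.047 with spike-in scaling. With normexp Sphk1 and Sgpp1 fell just short of the threshold in rescue cells (limma adjusted p = 0.0504 and 0.0633). In rescue cells these calls were lost without 1 culture, Sphk1 without the dense culture of day 2, Asah1 without sparse day 1 or dense day 3, and Sgpl1 and Sgpp1 each without sparse day 3, dense day 1 or dense day 2, with limma adjusted p up to 0.0745. In KO cells Asah1 was lost without any of 4 cultures, sparse days 1 and 2 and dense days 1 and 3 (limma adjusted p up to 0.0823). Sgpp1 was higher by 0.68 ± 0.21 in dense than in sparse KO cultures without passing (limma adjusted p = 0.0592). Its density responses in the 2 lines differed by 1.38 ± 0.30 (limma adjusted p = 0.00742).

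**Figure D4:**
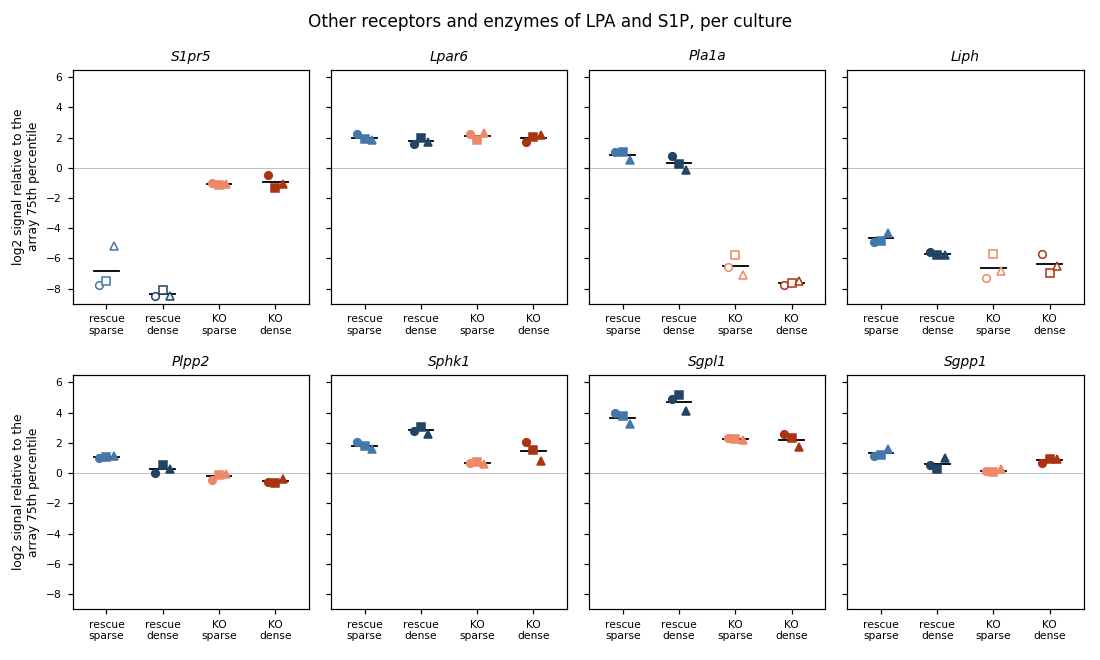
Levels of 8 other receptors and enzymes of LPA and S1P in each culture, as log2 signal relative to the array's 75th percentile (vertical axis) in the 4 groups (horizontal axis). Circles, squares and triangles are days 1, 2 and 3, filled where well above background, and bars are group means. S1pr5 is filled in KO groups alone and Pla1a and Liph in rescue groups alone, while Lpar6 means lie between 1.75 and 2.11 in all groups.

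Of 28 tested G proteins, guanine nucleotide exchange factors and regulators downstream of the receptors, 1 was higher and 12 lower in sparse KO cultures, and 2 were higher and 12 lower in dense ones. Rgs4, which speeds GTP hydrolysis by Gi and Gq, was lower in sparse and dense KO cultures (limma adjusted p = 9.48e-07 and 8.89e-08). The approximate bounds were 28.7-fold in sparse and 82.7-fold in dense cultures. Normexp gave log2 differences of -1.91 and -3.30, less than these bounds. Rgs2, a regulator of Gq, differed by -5.53 ± 0.21 in dense KO cultures (limma adjusted p = 6.69e-10), and its second probe by -3.19 ± 0.33 (limma adjusted p = 6.3e-06). The brighter probe of Arrb1, a beta-arrestin that uncouples receptors, differed by -3.07 ± 0.19 and -3.27 ± 0.19 (limma adjusted p = 7.94e-08 and 3.52e-08), but the second gave -0.28 ± 0.34 and 0.33 ± 0.34 (limma adjusted p = 0.533 and 0.441), so the probes disagreed on the lines. Mcf2l, a guanine nucleotide exchange factor, was 7.92-fold lower in sparse KO cultures by the approximate bound (limma adjusted p = 4.79e-07). However, a second probe of Mcf2l was called the other way in dense cultures, and normexp gave -0.55 in sparse ones (limma adjusted p = 0.448). Slc9a3r2, a scaffold that binds receptor tails, was higher by 2.72 ± 0.21 and 2.17 ± 0.21 (limma adjusted p = 4.22e-07 and 2.29e-06). Among the subunits of G proteins, Gnai2 differed by -1.69 ± 0.20 and -1.27 ± 0.20 (limma adjusted p = 1.96e-05 and 0.000138) and Gna13 by -0.46 ± 0.17 and -0.83 ± 0.17 (limma adjusted p = 0.0406 and 0.00111). The sparse Gna13 call was lost in 7 of 12 fits that left out 1 culture and with normexp (limma adjusted p = 0.0986), the dense one with spike-in scaling (-0.54, limma adjusted p = 0.202), and its second probe passed in neither (-1.04 and -0.94, limma adjusted p = 0.228 and 0.251). Gnaq passed in neither, with -0.21 ± 0.19 and -0.39 ± 0.19 (limma adjusted p = 0.392 and 0.097).

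With density, Rgs2 rose by 2.13 ± 0.21 in rescue cells and fell by 0.93 ± 0.21 in dense KO cultures (limma adjusted p = 2.01e-05 and 0.0178). Its second probe rose in rescue cells (2.42 ± 0.33, limma adjusted p = 0.000236) and did not pass in KO cells (-0.25 ± 0.33, limma adjusted p = 0.668). The KO value was -0.47 with normexp (limma adjusted p = 0.794) and 1.57 with spike-in scaling, and the call was lost without the sparse KO culture of day 1 or the dense one of day 2 (limma adjusted p up to 0.0807). Rgs16 was 5.11-fold lower in dense than in sparse rescue cultures by the approximate bound (limma adjusted p = 1.3e-05). With normexp its log2 difference was -0.67 (limma adjusted p = 0.525). In all, 5 of the 28 rose and 2 fell in rescue cells, and 2 fell in KO cells. The second of those was Plcb1, a phospholipase C activated by Gq, at -0.78 ± 0.23 by its brightest probe (limma adjusted p = 0.0495). Its other 2 probes gave -0.02 ± 0.34 and 0.04 ± 0.51 (limma adjusted p = 0.977 and 0.967), the call was lost in 10 of 12 fits that left out 1 culture, and the value was 1.72 with spike-in scaling. No density change of Plcb1 is read from these.

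The last list held 20 transcripts that LPA or S1P can induce quickly in fibroblasts. With density, 4 rose and 11 fell in rescue cells, and in KO cells 14 fell and 6 did not pass by limma with the 75th percentile scaling, while 2 were higher and 7 lower in sparse KO than in sparse rescue cultures and 4 higher and 9 lower in dense ones. The 14 calls in KO cells became 3, all lower, with normexp background correction, and 12 higher and 1 lower with scaling to the spike-in RNA. In rescue cells Ccn2, a matricellular protein, fell by 3.19 ± 0.34 and Fosl1, an AP-1 subunit, fell by 3.19 ± 0.51 in dense cultures (limma adjusted p = 3.43e-05 and 0.000512). Egr1, an immediate early transcription factor, rose by 2.28 ± 0.30 there (limma adjusted p = 0.000141). In KO cells Fosl1 fell by 4.48 ± 0.51, the cytokine Il6 fell by 2.77 ± 0.28 and Ankrd1 fell by 2.51 ± 0.35 (limma adjusted p = 0.00129, 0.00095 and 0.00229). Dense KO cultures had Fosl1 above background on 2 of 3 arrays and Il6 on 1 of 3, so those values are set against readings partly at background. Normexp gave -2.97 for Fosl1, -2.37 for Ankrd1 and -0.73 for Il6 (limma adjusted p = 0.0223, 0.0336 and 0.708). Spike-in scaling, which moved the median of all genes by 2.50 in this contrast, gave 0.74 for Ccn2 and 0.45 for Ptgs2 in KO cells, in place of lower values in dense cultures, and -0.27 for Il6 and -0.0066 for Ankrd1, which no longer passed (limma adjusted p = 0.468 and 0.987). Between the lines Ptgs2, the inducible cyclooxygenase, differed by -7.62 ± 0.27 in sparse KO cultures (limma adjusted p = 5.8e-10). In dense KO cultures it was 67.8-fold lower by the approximate bound (limma adjusted p = 1.23e-09). With normexp these log2 differences were -5.28 in sparse cultures and -3.07 in dense ones, the latter less than the bound. Fos, another AP-1 subunit, differed by 2.82 ± 0.27 in sparse KO cultures (limma adjusted p = 3.88e-06). In dense KO cultures Fosl1 differed by -3.45 ± 0.51, Egr1 by -2.90 ± 0.30 and Ccn2 by 1.26 ± 0.34 (limma adjusted p = 1e-04, 5.31e-06 and 0.00699), the Ccn2 call being lost with slide as a block.

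Likeness of profiles was measured as the root mean square difference of log2 levels over the 12 arrays after each gene's mean was removed. The nearest profiles to Enpp2 were those of Wfdc3 (0.44), Tgfbi (0.47), Agt (0.56), S100g (0.76) and Matn2 (0.86). Tgfbi, a secreted matrix protein, had group means of -0.42, 4.70, -4.31 and -4.20 in rescue sparse, rescue dense, KO sparse and KO dense cultures. The receptor with the widest range of group means was S1pr1, a range whose lower end is set by KO arrays of which 1 of 6 was above background. Its nearest profiles were Ddx3y (0.49), Lrrk2 (0.49), Plaat3 (0.50), Csgalnact1 (0.54) and Adora2b (0.56). Ddx3y, a gene of the Y chromosome, had means of 0.00 and 0.35 in sparse and dense rescue and -7.29 and -7.57 in KO cultures, so that the 2 lines also differed in a Y-linked transcript. These are descriptions over arrays that share lines and densities, and for both members the distances rest in part on KO readings at background.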

How the data were processed

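Total RNA (100 ng) from each of 12 cultures was labelled with Cy3 and hybridised to its own one-colour Agilent array, per the labels. The deposited scanner files give linear spot intensity, as written by Feature Extraction 10.5.1.1 after it subtracted background on each array, with a well-above-background flag per spot, per the file headers. The deposited value table holds log2 values whose normalisation and filter are not given in the sources used here.

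Spots marked as outliers (79 to 265 per array) were removed, repeated spots averaged, and each array's 75th percentile of log2 signal (294 to 1590 units) subtracted, with no pseudocount. A probe was kept (25927) if all 3 arrays of at least 1 group had it well above background, and the brightest stood for its gene. Of 41174 probes, 24375 carried 1 gene name and 16799 none. No probe sequence was used here. The 4 groups were fitted together with limma 3.58.1 in R 4.3.3 (8 residual df), with Benjamini-Hochberg adjustment over 12435 genes. The script was tested on simulated data. A member was said not to overlap when all 3 values of 1 group exceeded all 3 of the other. The number of arrays limits the precision.

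Members and lists were chosen with earlier results of these data known. Every member and probe is described. Per list and comparison, the 3 called genes with the largest change and the largest opposite call were eligible to be named, with the remaining receptors, the direct enzymes of LPA and S1P (Liph and Pla1a among them), the main coupled G proteins and the 5 nearest profiles to Enpp2 and S1pr1. The list genes named came from this rule; 1 gene it made eligible is counted in its list and not reported here.

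Replicate numbers are experimental days, which the labels say were shared by all groups, so they pair cultures. Of 18 same-day pairs of arrays, 11 had deviations from the group means correlated above 0.1 (range -0.0366 to 0.295). Alternatives were quantile, median and spike-in scaling, normexp on median signals, other filters, the median probe, day or slide as a block, the deposited table and leaving out each culture. Normexp was run with an offset of 50 units, which shrinks log2 differences of dim probes. The median processed signal of an array was 18.8 to 80.1 units. Figures were drawn with matplotlib 3.10.9.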

Additional observations from a re-analysis of the deposited data

Results flagged for a closer look

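For 10 of the pathway genes eligible to be named, the density response itself differed between the lines by a limma interaction test; each value is dense minus sparse in KO cells less the same in rescue cells (log2). In the list of LPA synthesis and breakdown, Mboat1 gave 2.31 (limma adjusted p = 0.000108), Gdpd1 -2.56 (limma adjusted p = 0.00135) and Gpat3 1.26 (limma adjusted p = 0.0061). The second probe of Gpat3 gave 0.34 (limma adjusted p = 0.44). The S1P phosphatase Sgpp1 gave 1.38 (limma adjusted p = 0.00742). Among G protein regulators, Rgs2 gave -3.06 (limma adjusted p = 0.000108), Rgs16 3.25 (limma adjusted p = 0.000407) and Plcb1 -0.999 (limma adjusted p = 0.0473), though Rgs16 was above background in sparse rescue cultures alone. The Plcb1 value was 0.75 with spike-in scaling, and its other 2 probes did not pass (-0.40 and 0.46, limma adjusted p = 0.6 and 0.695). Of the induced transcripts, Egr1 gave -3.08 (limma adjusted p = 0.000657), Fos -2.08 (limma adjusted p = 0.00344) and Il6 -1.63 (limma adjusted p = 0.0138). Spike-in scaling turned Il6 to 0.12 (limma adjusted p = 0.829) and left Egr1 at -1.33, Fos at -0.33 and Gdpd1 at -0.81 without passing (limma adjusted p = 0.0622, 0.562 and 0.195). Normexp background correction ended the calls of Gpat3 (0.27), Rgs16 (0.34), Plcb1 (-0.89), Fos (-1.29) and Il6 (-0.18), with limma adjusted p of 0.903, 0.928, 0.171, 0.0615 and 0.961. The groups of 3 are too small for a test of single outlying cultures.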

How the results depend on the processing

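Differences between the lines kept their sign for all 9 members under every scaling, block and left-out culture tried, and under every filter that kept the member. They also kept it in the 8 deposited columns that matched their scanner file. The exception was Enpp2 in sparse cultures, which was 0.10 with normexp background correction. Liph there was 0.30. Normexp also called fewer pathway genes: 20 (from 37) for density in rescue cells, 3 (from 20) in KO cells and 8 (from 15) for the interaction. Requiring signal on all 12 arrays dropped Enpp2, Lpar4, S1pr1 and S1pr3 and left 5 members, since fewer genes were kept. Of these, 5, 5 and 1 did not overlap between the sparse lines, the dense lines and the rescue densities. The share of all genes that did not overlap was not computed for this or the other alternatives. Spike-in scaling called 70 pathway genes (from 44) between the sparse lines, 4 higher and 66 lower (from 11 and 33). For density in KO cells it called 72, 71 higher and 1 lower (from 3 and 17). There 9 members did not overlap, and limma called 12258 of all 12435 genes, 12255 of them higher. For the interaction it called 58, 57 higher and 1 lower (from 7 and 8). It reversed Sgpp1 (0.047) in rescue cells, Ccn2 (0.74), Pla1a (1.35), Plcb1 (1.72), Ptgs2 (0.45) and Rgs2 (1.57) in KO cells, and Lpar2 (0.66), Plpp3 (0.16), Il6 (0.12) and Plcb1 (0.75) in the interaction; beyond the shift of all genes, the cause was not tested. Median centring moved the median of all genes by -0.30 between the sparse lines.

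The deposited table read as headed called 0 pathway genes (1 for density in KO cells) and 0 members that did not overlap, and reversed Gna13 (0.05), Plpp6 (0.19), Ccn2 (-0.18) and Rgs2 (0.56). In its 8 matching columns only Pla1a in KO cells was reversed (0.15).

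Leaving out 1 culture gave 11 to 21 pathway genes for density in KO cells and 3 to 6 members that did not overlap there; the lone-pair fits share the spread of all groups. With the experimental day as a replicate block, pairing the cultures, 45, 50, 36, 22 and 19 pathway genes were called in the 5 comparisons (44, 49, 37, 20 and 15 without), and overlap was not recomputed with a block. With slide as a block the counts were 36, 40, 34, 18 and 20. Slide as a block also lowered the calls over all genes between the lines, from 6067 to 4413 in sparse and from 7666 to 6433 in dense cultures. Dim signals limit Enpp2, Lpar4, S1pr1 and S1pr3, and Lpar3 cleared background on no array.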

Other observations

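In the deposited value table, the 8 columns of days 1 and 2 correlated with their own scanner files at 0.98 to 0.987 over 27572 probes. The 4 columns of day 3 did not: they correlated with their own file at 0.833 to 0.874 and with that of the other line at the same density at 0.972 to 0.984. Group labels here follow the scanner files of each sample. In the scanner files, arrays of 1 group, day 3 included, correlated at 0.982 to 0.992, and all 3 days gave Enpp2 above background in rescue cultures alone.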
